A study of Mus musculus with 45 samples.

Results

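A set of 10 genes of epithelial defense and inflammation was followed in the colonic epithelium of control, obese and formerly obese mice. They were Reg3b, Reg3g, Retnlb, Ang4, Lcn2, Saa1, Saa3, Nos2, Duox2 and Duoxa2, taken by symbol from an RNA-seq count table, and they made up 10 of its 24918 gene entries. All mice were male C57BL/6 mice (C57BL/6J in the study's methods) that entered the diets at 6 weeks of age. Control mice (LF) ate a low-fat diet with 10% fat for 20 weeks, obese mice (HF) ate a high-fat diet with 60% fat for 20 weeks, and formerly obese mice (HFLF) ate the high-fat diet during 15 weeks followed by 5 weeks on the low-fat diet. Each group had 5 mice, numbered 1 to 5 in the labels, and 1 RNA-seq library per mouse was made from epithelium released with PBS and EDTA from the entire colon, so that proximal and distal epithelium were measured together. Fewer cells of a type and less RNA per cell cannot be told apart in such bulk samples.

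The colonic epithelium keeps bacteria at a distance with mucus, secreted antimicrobial proteins and reactive oxygen and nitrogen species. Reg3b and Reg3g encode C-type lectins that bind and kill bacteria, Retnlb and Ang4 encode secreted products linked to goblet and other secretory cells, and Lcn2 encodes a protein that withholds iron from bacteria. Saa1 and Saa3 encode serum amyloid A proteins of the acute phase, Nos2 encodes inducible nitric oxide synthase, and Duox2 with its maturation factor Duoxa2 forms an epithelial oxidase that makes hydrogen peroxide. Several of these genes are known to respond to bacteria and to cytokines such as IL-22 through STAT3 and NF-kB.

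Libraries held 15230391 to 22762095 counts, and any 2 mice of a group differed by far more than counting error (chi-square divided by its degrees of freedom, 5.66 or more). The epithelial genes Epcam (2080 ± 97.8 CPM in control mice, SD, n = 5) and Cdh1 (1994 ± 99.9) were high, where CPM is the count relative to the TMM-scaled library total, whereas the summed level of 6 smooth muscle markers was between 0.223 and 2.70 CPM in every library. The library of formerly obese mouse 3 had the most counts, and the 10 genes took 0.369% of them, against 0.110% to 0.197% in the other libraries.

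The promoters of Reg3b with Reg3g and of Duox2 with Duoxa2 are shown because the genes of each pair varied together across mice. By the positions in the count table, Duox2 and Duoxa2 start 735 bp apart, whereas 92802 bp lie between Reg3b and Reg3g. Saa1 and Saa3, with 24823 bp between them, varied together less (Pearson r = 0.39), and their promoters are not printed. Promoters are the 250 bases before the start in RefSeq (GRCm38.p6), printed in the direction of the gene, and 8 of the 10 genes had an entry in the promoter table. Capitals mark matches on either strand to TTCNNNGAA (STAT), TTGCNNAA (C/EBP), TATAAA or the NF-kB consensus, with matches allowed to overlap.
Reg3b (chr6:78370635-78370884, plus strand): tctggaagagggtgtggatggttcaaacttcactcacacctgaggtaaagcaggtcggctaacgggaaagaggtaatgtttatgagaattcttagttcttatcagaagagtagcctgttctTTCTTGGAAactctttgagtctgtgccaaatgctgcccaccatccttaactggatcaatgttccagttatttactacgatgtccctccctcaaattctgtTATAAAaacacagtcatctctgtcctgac
Reg3g (chr6:78468875-78469124, minus strand): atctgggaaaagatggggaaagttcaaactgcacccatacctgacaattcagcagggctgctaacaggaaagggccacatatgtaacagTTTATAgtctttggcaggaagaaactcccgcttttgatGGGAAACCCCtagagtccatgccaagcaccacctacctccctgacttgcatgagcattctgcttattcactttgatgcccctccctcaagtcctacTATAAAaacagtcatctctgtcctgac
Duox2 (chr2:122298228-122298477, minus strand): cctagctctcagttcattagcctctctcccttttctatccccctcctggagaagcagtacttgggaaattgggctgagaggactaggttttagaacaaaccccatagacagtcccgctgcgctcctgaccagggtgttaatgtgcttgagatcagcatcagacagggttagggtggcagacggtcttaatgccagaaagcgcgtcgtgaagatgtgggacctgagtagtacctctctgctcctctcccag
Duoxa2 (chr2:122298650-122298899, plus strand): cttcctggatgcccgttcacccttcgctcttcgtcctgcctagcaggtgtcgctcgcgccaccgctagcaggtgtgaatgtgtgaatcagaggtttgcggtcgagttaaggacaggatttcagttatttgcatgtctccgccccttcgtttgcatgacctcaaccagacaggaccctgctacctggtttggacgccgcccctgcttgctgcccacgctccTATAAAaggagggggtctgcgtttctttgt
Reg3b had a STAT match at bases -129 to -121 and Reg3g an NF-kB match at bases -123 to -114, counted from the start, and both had TATAAA shortly before the start. Duoxa2 had TATAAA at bases -30 to -25, whereas the Duox2 window had none of the 4 motifs. That window is placed by the promoter table, which starts Duox2 farther upstream than the count table does (122298165), and the RefSeq gene model reaches farther still, to 122298740, so other windows before Duox2 were not searched. Among all 32851 promoters of the same length, 7.02% held the STAT motif, 7.25% the NF-kB motif, 9.56% the C/EBP motif and 12.37% TATAAA on either strand. No printed window held a C/EBP match, whereas those of Saa1 and Saa3 each held 1. A match to these letters describes the sequence and does not show binding.

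Reg3b and Reg3g lie on chromosome 6 (Reg3b 78370885 to 78373466 on the plus strand, Reg3g 78466268 to 78468874 on the minus strand, mm10), and they had the widest spread among the 10 genes. Reg3b was at 100.9, 19.8, 132, 135 and 102 CPM in control mice 1 to 5, at 377, 17.2, 136, 108 and 441 CPM in obese mice and at 283, 54.7, 1841, 142 and 579 CPM in formerly obese mice. Its level in formerly obese mouse 3 was 107-fold its level in obese mouse 2. Reg3g was at 19.1, 9.04, 29.1, 36.4 and 18.2 CPM in control mice, at 83.0, 6.42, 32.9, 27.0 and 84.7 CPM in obese mice and at 61.9, 9.34, 283, 25.4 and 208 CPM in formerly obese mice. The same mice were high for both genes, namely formerly obese mice 3 and 5 and obese mice 1 and 5, and all groups overlapped.

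**Figure D1:**
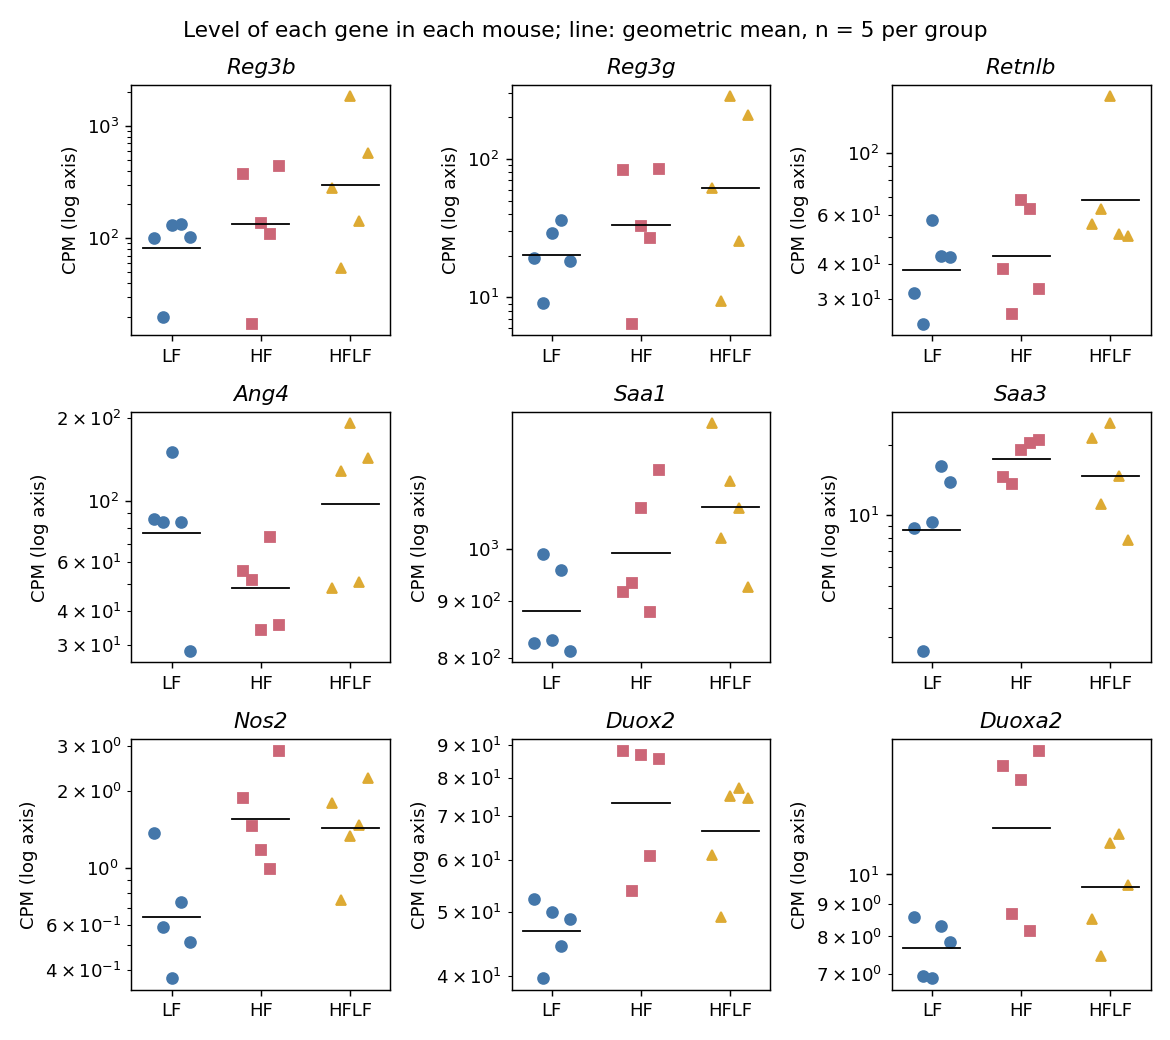
Level of the 9 tested genes in each mouse, in CPM on a log axis, for control (LF), obese (HF) and formerly obese (HFLF) mice, with mice 1 to 5 from left to right within each group. Points are mice and lines are geometric means. The 5 obese mice sit above the 5 control mice for Duox2, and formerly obese mouse 3 reaches 1841 CPM for Reg3b.

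In formerly obese mice, Reg3b rose by 2.57 on the log2 scale over control mice (SE 0.83, edgeR quasi-likelihood adjusted p = 0.119) and Reg3g by 2.39 (SE 0.75, adjusted p = 0.107). Genes were called at a fold change over 1.2, p under 0.01 and adjusted p under 0.25. In obese mice the differences from control mice were 1.14 for Reg3b (SE 0.81, adjusted p = 0.652) and 1.06 for Reg3g (SE 0.75, adjusted p = 0.653), which did not pass. The formerly obese and obese mice differed by 1.43 for Reg3b (adjusted p = 0.464) and 1.34 for Reg3g (adjusted p = 0.436), which did not pass either. The calls in formerly obese mice were lost with robust shrinkage of the variances (adjusted p = 0.215 and 0.197, unadjusted p above the cutoff) and depended on single mice. Without formerly obese mouse 3 the Reg3b difference was 1.44 and the Reg3g difference 1.76, and neither passed. Without formerly obese mouse 5 the differences were 2.57 and 2.09, and without control mice 1, 2 or 5 they were 2.31 to 2.59 for Reg3b and 2.20 to 2.34 for Reg3g, again without passing. Reg3b also lost its call without control mouse 3 (2.70) or 4 (2.71). Without both formerly obese mice 3 and 5, a choice made after their values were seen, the differences from control mice were 0.71 and 0.52, and those from obese mice turned to -0.43 and -0.53.

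The biological coefficient of variation, the spread between mice of a group beyond counting noise, was 82.3% for Reg3b and 75.6% for Reg3g against a median of 8.30% over the 12961 tested genes. Ang4 (41.9%), Saa3 (38.0%), Retnlb (35.6%) and Nos2 (32.8%) followed. Duoxa2 (18.3%), Duox2 (15.6%) and Saa1 (10.7%) had the lowest coefficients. Among the tested genes nearest in level, however, Nos2 was at percentile 87.1, Duoxa2 at 89.6, Saa1 at 89.9 and Duox2 at 97.5. The other tested genes of the set were at percentile 99.5 or above. Between the highest and the lowest mouse of a group, Reg3b differed 6.81-fold in control, 25.7-fold in obese and 33.7-fold in formerly obese mice.

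**Figure D2:**
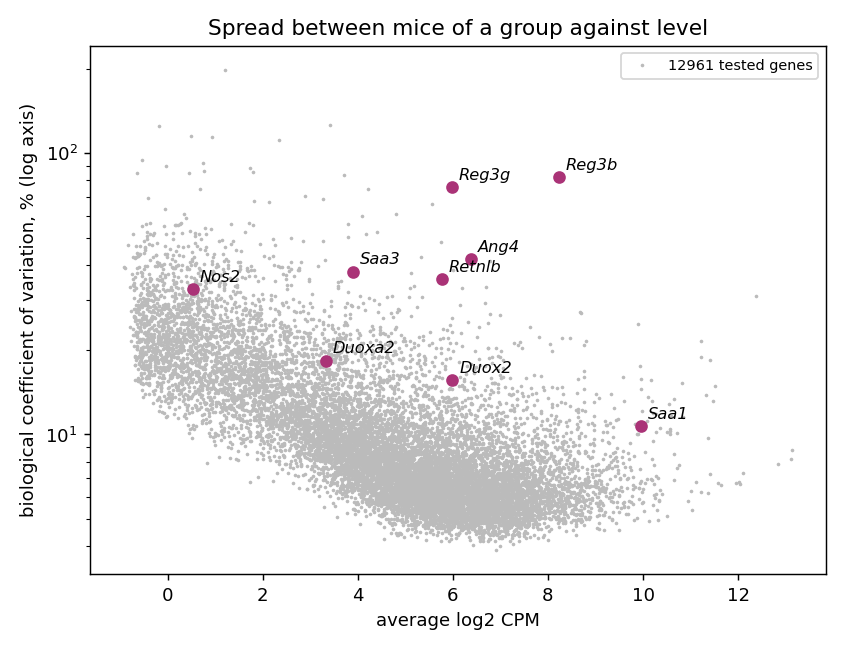
Biological coefficient of variation (percent, log axis) against average log2 CPM for the 12961 tested genes (gray) and the 9 tested genes of the set (colored). Reg3b at 82.3% and Reg3g at 75.6% lie far above the median of 8.30%.

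Over the 15 mice, Reg3b and Reg3g were correlated with Pearson r = 0.97 and Spearman rho = 0.96 (log2 CPM, permutation p = 1e-05 for each, the smallest that 100000 resamples can give, adjusted p = 2.5e-05 and 5e-05 over 5 pairs). Pearson r was 0.95 without formerly obese mouse 3 and obese mouse 2, the mice farthest from the median of Reg3b, and 0.96 after the group means were removed. Per kilobase of exon, Reg3b was 2.23 to 6.62 times Reg3g in every mouse. The genes share sequence, and reads that fit both may have been dropped or split in counting. Among genes outside the set, Pxmp2 (r = 0.90), Zwilch (0.88) and Kctd3 (0.88) were most like Reg3b and Cks1b (r = 0.89), Zwilch (0.89) and Gpsm2 (0.88) most like Reg3g, as a description over the same 15 mice.

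**Figure D3:**
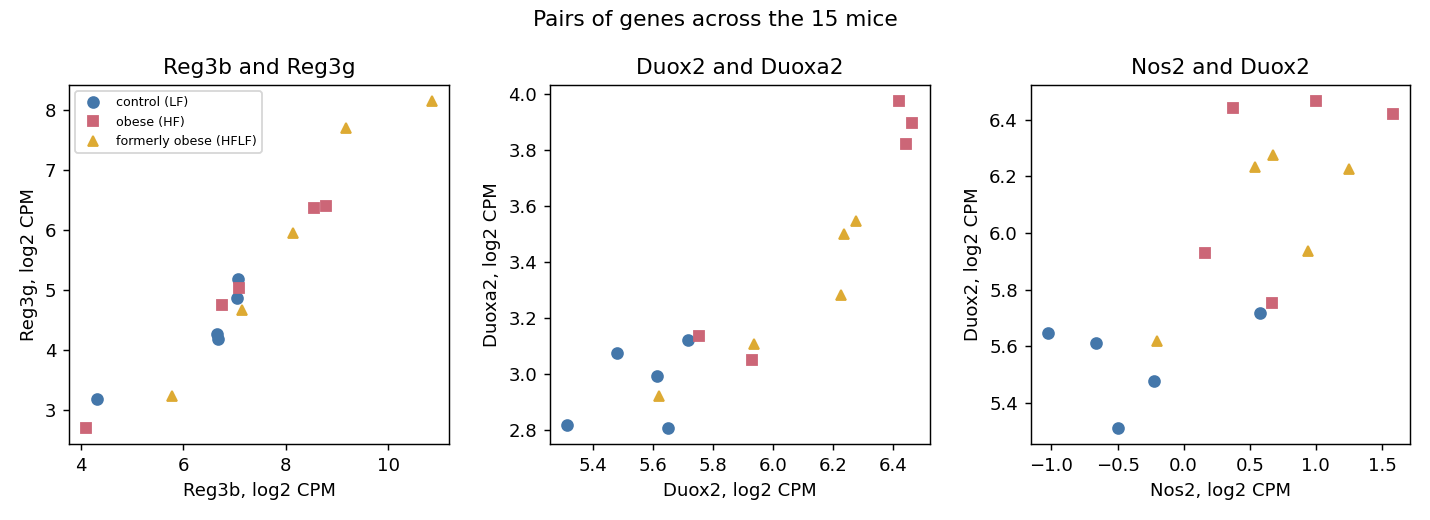
Log2 CPM of Reg3b and Reg3g, of Duox2 and Duoxa2, and of Nos2 and Duox2 in the 15 mice, with group shown by color and marker. The points of the first 2 pairs follow a line (r = 0.97 and 0.91) and those of the third are more scattered (r = 0.75).

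By the positions in the count table, Duox2 and Duoxa2 start 735 bp apart on opposite strands of chromosome 2 (Duox2 122280437 to 122298165, Duoxa2 122298900 to 122302885, mm10). Duox2 was at 52.4, 39.6, 50.04, 44.4 and 48.8 CPM in control mice, at 88.2, 53.8, 86.8, 60.8 and 85.5 CPM in obese mice and at 61.0, 49.1, 75.2, 77.4 and 74.7 CPM in formerly obese mice. Every obese mouse was above every control mouse, which held for 2.47% of all tested genes in either direction, and 4 of 5 formerly obese mice were above every control mouse. Duoxa2 was at 8.60, 6.94, 6.88, 8.31 and 7.85 CPM in control mice, at 14.8, 8.68, 14.04, 8.17 and 15.6 CPM in obese mice and at 8.50, 7.46, 11.2, 11.6 and 9.61 CPM in formerly obese mice. Obese mice 1, 3 and 5 were high for both genes, and obese mice 2 and 4 were close to the control mice for Duoxa2.

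In obese mice Duox2 rose 1.59-fold over control mice (log2 0.67, SE 0.14, edgeR adjusted p = 0.0786) and Duoxa2 1.59-fold (log2 0.67, SE 0.18, adjusted p = 0.150). In formerly obese mice Duox2 rose 1.44-fold (log2 0.52, SE 0.14, adjusted p = 0.0684), whereas Duoxa2 differed by 0.33 (SE 0.18, adjusted p = 0.366) and did not pass. Formerly obese and obese mice differed by -0.15 for Duox2 (SE 0.14, adjusted p = 0.704) and -0.34 for Duoxa2 (SE 0.17, adjusted p = 0.419). Both calls of Duox2 held with each of the 15 mice left out, at 0.61 to 0.77 in obese and 0.47 to 0.62 in formerly obese mice. Duox2 in formerly obese mice no longer passed without both mice 3 and 5 (0.41). The call of Duoxa2 was lost without control mouse 2 (0.63) or obese mouse 1 (0.59), 3 (0.61) or 5 (0.56).

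The pair was correlated over the 15 mice (r = 0.91, permutation p = 1e-05, adjusted p = 2.5e-05 and rho = 0.89, adjusted p = 7.5e-05). Pearson r was 0.89 without control mouse 2 and obese mouse 1, and 0.89 within groups. Per kilobase of exon, Duox2 was 1.40 to 2.03 times Duoxa2. Whether reads were counted by strand is not given in the sources used here. Among genes outside the set, Slpi (r = 0.88), which encodes a secreted protease inhibitor with antimicrobial activity, Pla2g2a (r = 0.86), which encodes a bactericidal phospholipase, and the kinase gene Ptk6 (r = 0.86) were most like Duox2 across the 15 mice. Within groups these r were 0.74, 0.71 and 0.67. Mx1 (r = 0.85), an interferon-induced gene, Il4ra (0.82) and Fabp6 (0.80) were most like Duoxa2, with r of 0.78, 0.72 and 0.60 within groups.

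Nos2, on chromosome 11 (78920859 to 78960124, plus strand), was low in every mouse. It was at 1.37, 0.589, 0.372, 0.739 and 0.515 CPM in control mice, at 1.89, 1.47, 1.18, 0.998 and 2.88 CPM in obese mice and at 1.81, 0.752, 1.34, 1.48 and 2.26 CPM in formerly obese mice. Control mouse 1 reached into the range of the other groups. Nos2 rose by 1.22 on the log2 scale in obese mice (SE 0.37, edgeR adjusted p = 0.222) and by 1.08 in formerly obese mice (SE 0.37, adjusted p = 0.142), and these groups differed by -0.14 (adjusted p = 0.907). The gene had 335 counts in all 15 libraries together, and its call in obese mice was lost without a filter on low counts (edgeR adjusted p = 0.259), as was that in formerly obese mice with upper-quartile scaling (1.07). Its call in obese mice was lost without control mouse 2, 3 or 5 or obese mouse 1, 3, 4 or 5 (0.94 to 1.36), and its call in formerly obese mice without any control mouse but 1, without obese mouse 1, 2 or 3, and without any formerly obese mouse but 2 (0.90 to 1.13). Nos2 and Duox2 were correlated over the 15 mice (r = 0.75, permutation p = 0.00165, adjusted p = 0.00275, rho = 0.75, adjusted p = 0.0032) and less so within groups (r = 0.48, permutation p = 0.0726). Pearson r was 0.76 without control mice 3 and 5. Rnf19b (r = 0.88), Dtx3l (0.77) and Trim15 (0.76) were most like Nos2, with r of 0.74, 0.63 and 0.60 within groups.

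**Figure D4:**
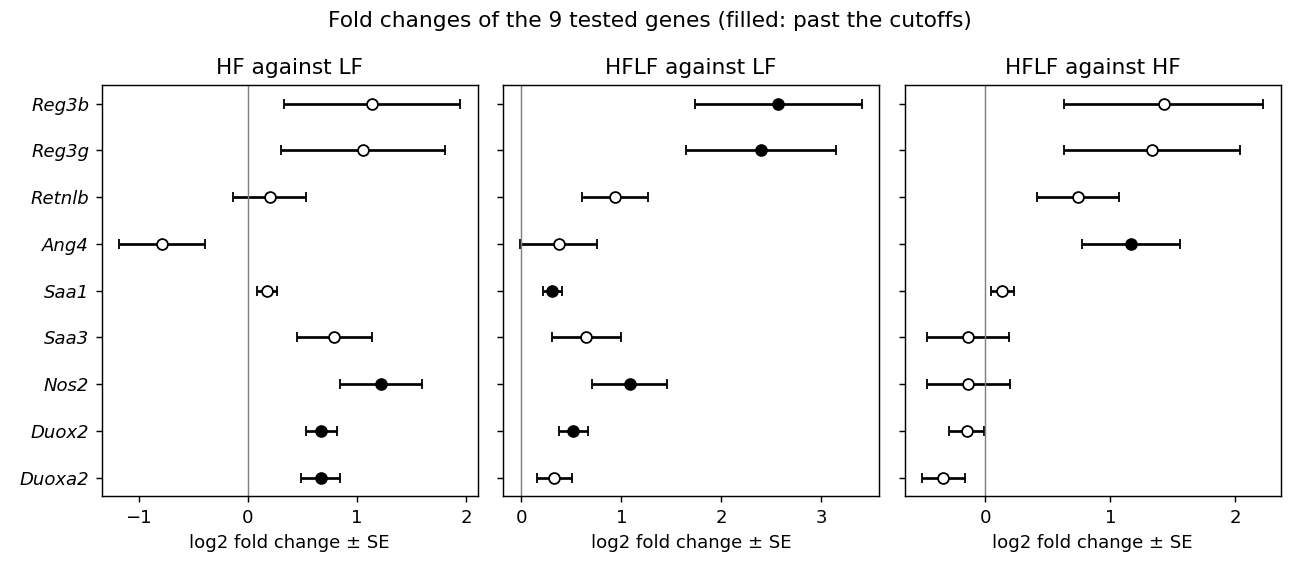
Log2 fold changes with standard errors of the 9 tested genes for obese against control, formerly obese against control and formerly obese against obese mice. Filled points passed the cutoffs: Nos2, Duox2 and Duoxa2 in the first, Reg3b, Reg3g, Saa1, Nos2 and Duox2 in the second, and Ang4 in the third.

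Ang4, on chromosome 14 (51763892 to 51773590, minus strand), was the only one of the 9 tested genes with a lower fitted level in obese than in control mice. It was at 86.0, 84.0, 150, 83.9 and 28.6 CPM in control mice, at 55.7, 51.8, 34.0, 74.2 and 35.5 CPM in obese mice and at 48.5, 128, 191, 50.6 and 143 CPM in formerly obese mice. In formerly obese mice it rose 2.24-fold over obese mice (log2 1.16, SE 0.39, edgeR adjusted p = 0.193), with 3 of 5 mice above every obese mouse. The differences from control mice were -0.79 in obese mice (SE 0.40, adjusted p = 0.483) and 0.38 in formerly obese mice (SE 0.38, adjusted p = 0.667). The call was lost without control mouse 1, 2 or 4, obese mouse 1, 2, 3 or 5, or formerly obese mouse 2, 3 or 5, at differences from 0.88 to 1.21, and with DESeq2 (1.16) or robust shrinkage (adjusted p = 0.298). The genes most like Ang4 over the 15 mice were Clca3 (r = 0.90), expressed by goblet cells, and Itln1 (r = 0.89), which encodes a carbohydrate-binding lectin, followed by Pnliprp2 (r = 0.86).

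Retnlb, on chromosome 16 (48816856 to 48818892, plus strand), was at 31.6, 24.5, 57.9, 43.0 and 42.5 CPM in control mice, at 38.6, 26.6, 68.1, 63.4 and 32.5 CPM in obese mice and at 55.6, 63.3, 160, 51.4 and 50.6 CPM in formerly obese mice. Formerly obese mouse 3 stood apart, and the other 4 lay within the range of obese mice. Formerly obese mouse 2 was also above every control mouse, and all formerly obese mice were above every control mouse but mouse 3. The difference between formerly obese and control mice was 0.94 (SE 0.33, edgeR adjusted p = 0.153) and narrowly missed the cutoff on the unadjusted p, and it was 0.46 without formerly obese mouse 3. It passed without control mouse 3 (1.11), obese mouse 2 (0.94) or formerly obese mouse 1 (1.03), 4 (1.05) or 5 (1.05). Retnlb and Ang4 had r = 0.43 over the 15 mice (permutation p = 0.112, adjusted p = 0.14) and rho = 0.20 (adjusted p = 0.483), and r = 0.25 without formerly obese mouse 3 and control mouse 2. Ppp2r5d (r = 0.87), Med14 (0.86) and Svil (0.84) were most like Retnlb.

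Saa1 and Saa3 lie on chromosome 7 on the minus strand (Saa1 46740499 to 46742980, Saa3 46711998 to 46715676). Saa1 had the highest level of the 10 genes per length, with a mean of 965 CPM per kilobase of exon over all mice, followed by Reg3b with 392 CPM per kilobase. Saa1 was at 826, 991, 831, 958 and 812 CPM in control mice, at 916, 933, 1089, 880 and 1176 CPM in obese mice and at 1295, 1023, 1150, 1089 and 926 CPM in formerly obese mice. In all, 4 of 5 formerly obese mice were above every control mouse, and Saa1 rose 1.24-fold (log2 0.31, SE 0.09, edgeR adjusted p = 0.0958). In obese mice the difference from control mice was 0.18 (SE 0.09, adjusted p = 0.513). The call was lost without control mouse 1, 3 or 5 or formerly obese mouse 1 or 3 (0.25 to 0.29). Reads of Saa1 and its close copy Saa2, which had 127 counts in all libraries, may have been divided between them in counting.

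Saa3 was at 8.84, 2.62, 9.36, 16.3 and 13.96 CPM in control mice, at 14.7, 13.6, 19.0, 20.4 and 21.0 CPM in obese mice and at 21.4, 11.2, 24.7, 14.7 and 7.80 CPM in formerly obese mice. Obese mice were less scattered than either other group. The differences from control mice were 0.79 in obese mice (SE 0.34, edgeR adjusted p = 0.417) and 0.65 in formerly obese mice (SE 0.34, adjusted p = 0.354), and neither passed. Saa1 and Saa3 had r = 0.39 over the 15 mice (permutation p = 0.148, adjusted p = 0.148) and rho = 0.58 (adjusted p = 0.0339), with r = 0.23 without formerly obese mouse 1 and obese mouse 5. Sct (r = 0.92), which encodes the hormone secretin, Fam78a (0.92) and Ugt8a (0.91) were most like Saa3, and Cideb (r = 0.90), Cdhr5 (0.88) and Ralgds (0.85) most like Saa1.

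Lcn2 had 11 counts in all 15 libraries together and was not tested. It had 3 counts in control mouse 3 and in obese mice 1 and 3, 1 count in obese mouse 2 and in formerly obese mouse 2, and 0 counts in the other 10 libraries, where a count of 0 allows up to 0.132 to 0.197 CPM over the range of library sizes, counting error only. No difference between the groups was detectable at this depth.

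Of the 9 tested genes, 3 were called in obese against control mice, all higher, where 1.58% of all tested genes were called and 0.718% were called higher. In formerly obese against control mice 5 were called, all higher, where 3.72% of all tested genes were called and 1.85% were called higher. In formerly obese against obese mice 1 was called, higher, where 2.65% were called and 1.23% were called higher. None had an edgeR adjusted p under 0.05, which 0.123%, 2.18% and 0.193% of all tested genes had. With DESeq2, the adjusted p was under 0.05 for Duox2 (0.00193) and Duoxa2 (0.0317) in obese against control mice and for Duox2 (0.013) and Saa1 (0.0333) in formerly obese against control mice. An unadjusted p under 0.05 was found for 4, 6 and 2 of the 9 genes and for 10.9%, 16.7% and 13.4% of all tested genes. The groups did not overlap for 1, 0 and 0 of the 9 genes, against 2.47%, 3.62% and 3.38% of all tested genes. Fitted differences were positive for 8, 9 and 5 of the 9 genes and for 50.1%, 49.8% and 51% of all tested genes. The median log2 difference of the 9 genes was 0.67, 0.65 and 0.13, while the median over all tested genes was close to 0 in each comparison. These counts are not of independent genes, since Reg3b with Reg3g and Duox2 with Duoxa2 varied together across mice (r = 0.97 and 0.91). The genes were also chosen with earlier results of these data known. Both comparisons with control mice share the 5 control libraries. Nos2 and Duox2 were called in both.

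**Figure D5:**
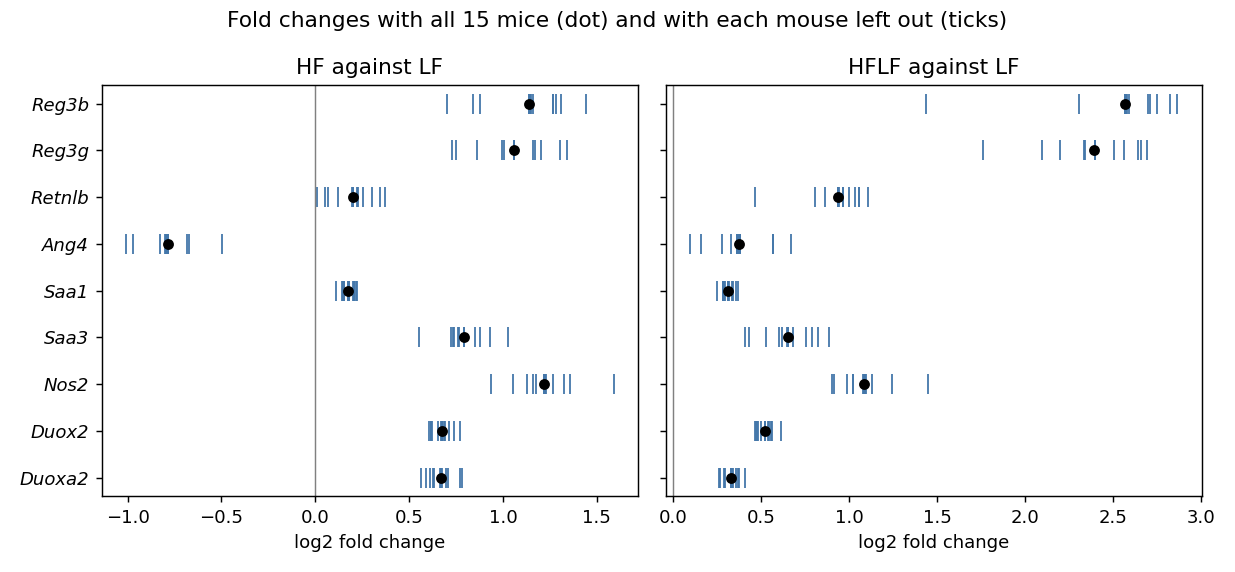
Log2 fold changes of the 9 tested genes for obese and formerly obese against control mice, with all 15 mice (dots) and with each mouse left out in turn (ticks). Reg3b in formerly obese mice moves from 2.57 to 1.44 without mouse 3, and Duox2 stays between 0.61 and 0.77 in obese mice.

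Other genes of epithelial defense moved in different ways. Of 14 tested antimicrobial and barrier genes, 3 rose and 2 fell in obese against control mice. Besides Lyz1, those that rose were Slpi (log2 1.17, edgeR adjusted p = 0.178) and Pla2g2a (log2 0.70, adjusted p = 0.199). Both were low in obese mice, at 2.51 ± 1.03 and 2.63 ± 0.82 CPM. In formerly obese against control mice Slpi differed by 0.92 (adjusted p = 0.155) and did not pass. The lysozyme gene Lyz1 rose from 0.824 ± 0.308 to 3.19 ± 1.01 CPM (SD, n = 5 each) in obese mice (log2 1.95, edgeR adjusted p = 0.0468) and was lower again in formerly obese mice (0.903 ± 0.577 CPM, log2 -1.81 against obese mice, adjusted p = 0.0468). Itln1 fell by 1.11 and Mptx1, which encodes a pentraxin, by 0.71 in obese mice (adjusted p = 0.182 and 0.125), and they rose by 1.41 and 0.61 in formerly obese against obese mice (adjusted p = 0.0582 and 0.116). Mptx1 was at 2804 ± 581, 1711 ± 296 and 2618 ± 649 CPM in control, obese and formerly obese mice. Itln1 was low, at 2.83 ± 1.40, 1.31 ± 0.16 and 3.47 ± 1.14 CPM in the same groups. Pla2g2a was 0.64 higher (adjusted p = 0.115) and the protease inhibitor gene Wfdc2 0.52 lower (log2 -0.52, adjusted p = 0.0276) in formerly obese than in control mice.

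Among 3 tested relatives of the 10 genes, Reg3a rose in formerly obese mice by 1.11 over control and 1.59 over obese mice (adjusted p = 0.123 and 0.0797), at a low level of 0.938 ± 0.470 CPM. None of the 14 tested partners of NADPH oxidases and nitric oxide synthases was called in any comparison.

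Of 18 tested cytokine receptor and STAT3 genes, Il18r1, which encodes a receptor subunit for IL-18, rose in formerly obese against control mice (log2 1.05, adjusted p = 0.026) and Bcl3 fell against obese mice (log2 -0.48, adjusted p = 0.147). Of 24 tested microbial sensing and NF-kB genes, Cebpd fell in formerly obese mice against control (log2 -0.67, adjusted p = 0.038) and obese mice (log2 -0.79, adjusted p = 0.0513), Cebpb fell against obese mice (log2 -0.53, adjusted p = 0.0964) and Tlr2 rose against control mice (log2 0.34, adjusted p = 0.0642). Il22 had 0 counts in all 15 libraries, and 7 of 25 cytokine and chemokine genes were tested, of which Il18 (log2 -0.38, adjusted p = 0.131) and Il1rn (log2 -0.43, adjusted p = 0.109) fell in formerly obese against control mice.

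Markers of other cells and of gut region moved as well. Of 10 tested small intestine markers, 3 rose in obese and 5 in formerly obese against control mice, including the bile acid genes Fabp6 (log2 1.36, adjusted p = 0.0678, obese) and Slc10a2 (log2 0.96, adjusted p = 0.0289, formerly obese). Their summed level was 1135 to 1479 CPM in control, 1338 to 1692 CPM in obese and 1570 to 1813 CPM in formerly obese mice, and the Paneth cell genes Defa17 and Defa24 were at 0 in every library. Hoxb13 and Hoxd13, known as distal colon genes, fell by 0.36 and 0.52 in formerly obese against control mice (adjusted p = 0.0303 and 0.0356). Of 9 tested immune cell markers none was called, and their list summed to 84.3 to 117 CPM in control, 103 to 139 CPM in obese and 83.6 to 143 CPM in formerly obese mice. No goblet cell marker of 12 tested was called in any comparison. Of 11 tested colonocyte markers 4 rose in formerly obese mice against control mice and 4 against obese mice, among them the ion transporter genes Slc9a3 (log2 0.74 and 0.69) and Slc26a3 (log2 0.41 and 0.62), and of 4 tuft cell markers Trpm5 (log2 0.41) and Dclk1 (log2 0.32) rose against control mice. In the same comparison Cidec, the only 1 of 7 listed adipocyte markers that was tested, rose (log2 0.93). The adipocyte genes Lep and Plin1 were at 0 in every library. Of 3 tested liver markers, Alb (log2 -1.71) and Ttr (log2 -0.27) fell and Apoa2 did not pass (log2 0.15). Alb was low and scattered, at 3.89 ± 3.61 CPM in control and 1.19 ± 0.52 CPM in formerly obese mice. None of 5 tested fibroblast and none of 9 tested stem and proliferating cell markers was called in any comparison. All 5 fibroblast markers were higher in obese and formerly obese than in control mice (median log2 0.59 and 0.97). Formerly obese mouse 3 had the highest summed level of all 15 libraries for both lists, at 38.9 and 781 CPM. The part of these markers in the results above was not tested.

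Regions of changed DNA methylation between obese and control mice, as the study called them from bisulfite sequencing, lay within 50 kb of the start of 5 of the 10 genes, against 34.843% of all tested genes. One region that gained methylation, 77 bp on chromosome 6 (78373105 to 78373181, mm10), lay inside Reg3b, 2.2 kb after its start. A 40 bp region that gained methylation (chromosome 7, 46726419 to 46726458) lay between Saa3 and Saa1, 10.7 kb before the Saa3 start. A 45 bp region that lost methylation (chromosome 2, 122279710 to 122279754) lay 18.4 kb after the Duox2 start and 19.1 kb before that of Duoxa2. These distances use the starts in the count table. By the RefSeq gene models, the 45 bp region lies inside Duox2 (122279246 to 122298740) and Saa3 starts closer to the 40 bp region, at 46719615. The 5 genes therefore shared 3 regions.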

How the data were processed

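RNA-seq counts per gene were deposited by the authors, who made stranded mRNA libraries, aligned paired reads with TopHat2 2.0.4 to mm10 and counted them with HTSeq. The annotation release and strand mode of counting are not given in the sources used here. The deposited columns of the authors' own comparisons and the bisulfite amplicon data were not used, and the deposited list of methylation regions, made from whole-genome bisulfite sequencing, was used for positions and direction only. The genes and lists were chosen with earlier results of these data known.

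Counts were tested with edgeR 4.0.16 (R 4.3.3), with its expression filter, TMM scaling and quasi-likelihood tests, in 1 fit of group over 15 libraries. Adjusted p-values (Benjamini-Hochberg) covered all 12961 tested genes. Genes were called at a fold change over 1.2, p under 0.01 and adjusted p under 0.25, the study's cutoffs. Log2 CPM used a prior count of 2. In a simulated obese against control comparison over 12888 genes, 83 of 100 genes changed 1.5-fold and 91 of 100 changed 2-fold were called. There were 31 calls among the unchanged genes of that simulation and 1 in its formerly obese against control comparison, where no gene was changed. The changed genes were drawn at random from the tested genes, whose median biological coefficient of variation was 8.30%. The tested genes of the set varied more (10.7% to 82.3%), so these rates cannot be carried over to them. Named genes were the 10 members, called genes of each list (at most the 3 with the smallest p per comparison) and the 3 genes most like each member. P-values of group differences weigh the difference against the spread between these mice. The alternatives were other scaling, filters, tools and cutoffs, compared groups only, a GC correction, a replicate block and leaving out each library. Correlations were tested with scipy by 2-sided permutation with 100000 resamples. Mice were shuffled across groups, so the correlations include differences between groups except where group means were removed.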

Additional observations from a re-analysis of the deposited data

Results flagged for a closer look

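In 30 groups of 5 mice checked, one for each gene and diet, 3 had a mouse far from the other 4 in CPM, and chance flags about 1 in 20 such groups. Retnlb in formerly obese mouse 3 was at 159.8 CPM, with the gap to the next mouse making up 0.884 of the range of the group. Lcn2 in control mouse 3 was at 0.186 CPM and in formerly obese mouse 2 at 0.0627 CPM, and these stand for 3 counts and 1 count where the other 4 mice had 0.

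The effect on Ang4 differed between formerly obese and obese mice, each taken against control mice, by 1.16 on the log2 scale (edgeR adjusted p = 0.193), with 3 of 5 formerly obese mice above every obese mouse.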

How the results depend on the processing

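With the study's cutoffs, 3, 5 and 1 of the 9 tested genes were called in obese against control, formerly obese against control and formerly obese against obese mice. With an edgeR adjusted p under 0.05 and no fold cutoff these were 0, 0 and 0, and 16, 282 and 25 of all genes passed in place of 205, 482 and 343. With DESeq2, 0 were called in the third comparison, where 363 of 18406 genes were. With robust shrinkage, 3 were called in the second and 0 in the third, where 465 and 325 of 12961 genes were. Without both formerly obese mice 3 and 5, chosen after seeing the data, 1 was called in the second and 0 in the third, with 71 genes called in the third. Leaving out each library in turn gave 1 to 3, 1 to 5 and 0 to 1 genes of the set, and 40 to 331, 362 to 660 and 167 to 400 of all genes. Of 405 fold changes with 1 library left out, 348 kept direction and call, 49 lost the call, 5 gained it and 3 reversed. Those were Nos2 in formerly obese against obese mice without obese mouse 5 (0.15) or formerly obese mouse 2 (0.024), and Saa3 there without formerly obese mouse 5 (0.031), over ranges of -0.32 to 0.15 and -0.37 to 0.031. Without both formerly obese mice 3 and 5, Ang4 against control mice reversed to -0.20, and Reg3b and Reg3g against obese mice to -0.43 and -0.53. Of 240 fold changes under other settings with all libraries kept, 229 kept direction and call. The causes were not tested.

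Over all tested genes, mice with the same number in different groups deviated together only in part. Of 15 pairs, 5 had a correlation over 0.1 (range -0.23 to 0.33), and 6 of 15 libraries correlated best with their own number. Every pair of mice numbered 2 correlated positively (0.20, 0.22 and 0.16). Within the set, mouse 2 was the lowest of each group for Reg3b, Reg3g and Duox2, and mouse 3 the highest of each for Retnlb. What mice of 1 number share was not tested. With the replicate block the counts stayed at 3, 5 and 1, but Retnlb passed in formerly obese against control (0.86) and obese mice (0.69), while Saa1 (0.31) and Ang4 (1.08) lost their calls. In all, 252, 537 and 346 genes were called with the block, under which the adjusted p of Duox2 was 0.0206 in obese and 0.0181 in formerly obese against control mice and that of Retnlb 0.0326 in the latter. With starts from the count table, methylation regions lay near 1 gene of the set with a 10 kb window (9.583% of tested genes). They lay near 6 with a 100 kb window (56.03%), in place of 5 with 50 kb (34.843%). Lcn2 had 11 and Nos2 335 counts over all libraries.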
